A study of Mus musculus with 12 samples.

Results

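The 8 genes described here, *Otx2*, *Pou3f1*, *Fgf5*, *Zic2*, *Lef1*, *Lin28b*, *Sall2* and *Sox3*, are markers of formative and primed pluripotency. They were fixed by name and found by gene symbol among the 54146 genes of each library. Embryonic stem cells in the naive state resemble the epiblast before implantation. As they leave that state they go through a formative phase and reach a primed one, in which naive factors are switched off and the transcription factors OTX2 and POU3F1, the ligand FGF5 and the de novo DNA methyltransferases come up. WNT signaling, FGF signaling and the let-7 microRNAs all act on this exit, and cells kept in serum and LIF hold a mixture of naive cells and cells on their way out.

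RNA-seq was performed on C57BL/6 mouse embryonic stem cells (mESCs) of the genotype Prdm10F/F; Rosa26-CreERT2, in which both alleles of *Prdm10* carry loxP sites and every cell can make a Cre recombinase that is active in the presence of hydroxytamoxifen (OHT). All groups were grown on gelatin in serum and LIF and were exposed for 24 h either to 50 nM OHT, which gives the genotype Prdm10del/del; Rosa26-CreERT2, or to its solvent ethanol (EtOH), and were harvested at Day 2 or Day 4, with 3 libraries in each of the 4 groups. The EtOH cells carry the floxed alleles and the recombinase as well, and no cells without floxed alleles were given OHT, so that loss of *Prdm10* and exposure to OHT or active Cre cannot be told apart. The cells were derived from blastocysts on mouse fibroblast feeders in 2i and LIF; how many lines or clones were used is not given in the sources used here. The study describes its experiments in general as independently repeated, without naming these libraries, so that p-values measure the spread between these libraries.

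The libraries held 35017667 to 41409992 expected counts, RSEM's estimates of the read pairs from each gene. Counted over the whole gene, the targeted gene was higher in the OHT libraries on both days. *Prdm10* had a mean normalised count of 801 ± 29.4 (SD, n = 3) in the EtOH libraries and 2173 ± 80.3 (SD, n = 3) in the OHT libraries at Day 2, and of 869 ± 45.8 (SD, n = 3) and 2012 ± 67.5 (SD, n = 3) at Day 4. A count over the whole gene does not show whether the floxed exon was removed. The study reports that recombination was verified in DNA, in transcripts of the floxed exon and in protein, by assays that were not analysed here. The groups are called by their labels, and directions are given for OHT relative to EtOH. The 7 defining mESC markers were all expressed, with a summed TPM (a level corrected for transcript length and scaled to the same total in each library) of 2087 to 2512 over the 12 libraries. In bulk RNA, fewer cells that express a gene and less of its RNA per cell cannot be told apart.

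Sequences of 3 of these genes are shown first, with the reason for each. *Otx2* and *Lef1* were the members that fell most between the days, and a promoter of each is printed for that reason. Promoter windows of 300 bases, from 250 before to 50 after a RefSeq start, were found for 5 of the 8 members (*Otx2*, *Fgf5*, *Lef1*, *Lin28b* and *Sall2*). The *Otx2* window on the minus strand of GRCm38.p6, chr14:48667459-48667758, holds the starts of 5 coding transcript models, more than the 3 other *Otx2* windows, and has a GC content of 47.7%. The *Lef1* window, chr3:131110073-131110372 on the plus strand, is 1 of 4 for that gene and the nearest upstream of its annotated start, though it holds 0 starts of coding transcript models. It has a GC content of 67.3% against a median of 52.7% over 32851 mouse windows. Capitals mark any of 3 motifs on either strand, which are the TATA box (TATAAA), the box CCAAT, and the TCF/LEF core written as CTTTGAA or as CTTTGAT.
Otx2 promoter: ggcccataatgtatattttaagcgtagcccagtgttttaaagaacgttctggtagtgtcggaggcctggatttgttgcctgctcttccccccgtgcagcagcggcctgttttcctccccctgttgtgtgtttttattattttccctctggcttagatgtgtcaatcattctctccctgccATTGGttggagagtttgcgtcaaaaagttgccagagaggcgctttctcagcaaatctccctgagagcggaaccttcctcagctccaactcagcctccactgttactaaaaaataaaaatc
Lef1 promoter: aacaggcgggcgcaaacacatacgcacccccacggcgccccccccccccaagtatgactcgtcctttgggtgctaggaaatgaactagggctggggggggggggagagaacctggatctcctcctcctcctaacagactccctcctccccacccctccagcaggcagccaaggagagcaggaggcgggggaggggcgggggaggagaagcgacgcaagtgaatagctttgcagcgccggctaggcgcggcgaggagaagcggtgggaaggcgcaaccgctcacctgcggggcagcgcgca
The *Otx2* window held 1 CCAAT, in reverse as ATTGG, a motif present in 37.4% of all windows. The printed *Lef1* window held none of the 3. Of the *Otx2* windows not printed, chr14:48667595-48667894, which overlaps the printed one, holds 1 coding start and 1 TATA box. Of the *Lef1* windows not printed, chr3:131112541-131112840 holds 1 coding start and chr3:131156044-131156343 holds 1 TATA box. The TATA box occurred in 13.6% and the TCF/LEF core in 8.65% of all windows, and no window of the 5 members held that core.

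The other set concerns *Lin28b*, whose RNA-binding product blocks the maturation of let-7 and whose own RNA is a let-7 target. The 8 mature let-7 5p microRNAs examined all carry the seed GAGGUAG (bases 2 to 8, in capitals). Their target match CTACCTC occurs 4 times in the longest annotated *Lin28b* 3′ UTR of 4445 bases, at positions 36, 2410, 2582 and 3998. The let-7 microRNAs 7a, 7d and 7g, which share the seed but differ after it, are followed by the 4 *Lin28b* sites, all on the minus strand of chromosome 10 in GRCm38, with the seed match in capitals.
mmu-let-7a-5p: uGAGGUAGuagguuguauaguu
mmu-let-7d-5p: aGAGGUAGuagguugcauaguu
mmu-let-7g-5p: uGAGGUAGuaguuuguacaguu
Lin28b site 1, chr10:45381022-45381044: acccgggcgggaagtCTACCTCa
Lin28b site 2, chr10:45378648-45378670: tatacttgttagtaaCTACCTCt
Lin28b site 3, chr10:45378476-45378498: gtttacagcacatggCTACCTCc
Lin28b site 4, chr10:45377060-45377082: aaatgatggcaccgaCTACCTCt
Of 20512 mouse genes with an annotated 3′ UTR that were searched, 9.04% held at least 1 such match and 12 (0.0585%) held at least 4. None of the other 7 members held one. Mature microRNAs were not measured in these libraries, so that the matches describe the transcript and not its regulation.

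Levels of the 8 genes relative to each other were compared by TPM. *Lin28b* was the most abundant in every group, at 8.49 ± 0.332 TPM (SD, n = 3) in Day 2 EtOH and 9.92 ± 0.457 TPM (SD, n = 3) in Day 4 EtOH. Even so, 43.9% of the 11616 genes with a mean normalised count above 100 had a lower mean TPM, so that all 8 markers lay below the median of 10.8 TPM. *Otx2* came next at Day 2, at 4.69 ± 0.225 TPM (SD, n = 3) in EtOH and 4.68 ± 0.331 TPM (SD, n = 3) in OHT, above *Zic2* at 3.96 ± 0.204 TPM (SD, n = 3) and 2.94 ± 0.374 TPM (SD, n = 3). At Day 4 the order of these 2 genes was the opposite. *Zic2* stood at 3.33 ± 0.190 TPM (SD, n = 3) in EtOH and 4.22 ± 0.541 TPM (SD, n = 3) in OHT, above *Otx2* at 2.37 ± 0.364 TPM (SD, n = 3) and 2.90 ± 0.110 TPM (SD, n = 3). The ranges of *Otx2* and *Zic2* TPM over libraries did not overlap in any group.

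*Pou3f1*, *Lef1* and *Sall2* followed at Day 2 with means between 1.34 and 1.57 TPM. In Day 2 EtOH their ranges overlapped, and the order of neighbors was not resolved. In Day 2 OHT *Sall2* lay above *Lef1* without overlap, and the range of *Pou3f1* spanned both. At Day 4 *Sall2* and *Pou3f1* stayed between 1.42 and 1.53 TPM and overlapped with each other, whereas *Lef1* had dropped below both, to 0.470 ± 0.0520 TPM (SD, n = 3) in EtOH and 0.180 ± 0.0900 TPM (SD, n = 3) in OHT. The last value overlapped with that of *Sox3*, at 0.233 ± 0.0379 TPM (SD, n = 3).

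*Fgf5* and *Sox3* were too low to judge, with a mean expected count under 20 over the 12 libraries. *Fgf5*, the classical ligand marker of the epiblast after implantation (ENSMUSG00000029337.2, chr5:98254184-98277030, plus strand), had a mean of 4.17. Its expected counts were 2, 6 and 5 in Day 2 EtOH, 10, 4 and 7 in Day 2 OHT, 4, 3 and 6 in Day 4 EtOH, and 0, 1 and 2 in Day 4 OHT. All Day 4 OHT libraries were thus at or below 3 counts, a level treated as the floor of detection, and no fold change is given. *Sox3*, a SoxB1 factor of the epiblast and early neural tissue (ENSMUSG00000045179.9, chrX:60891366-60893430, minus strand), had a mean of 14.9. Its expected counts were 9, 16 and 14 in Day 2 EtOH, 16, 9 and 6 in Day 2 OHT, 17, 12 and 19 in Day 4 EtOH, and 16, 22 and 23 in Day 4 OHT, with overlap between EtOH and OHT on both days. For the other 6 genes the mean ranged from 111 for *Lef1* to 1902 for *Lin28b*. RSEM gave a posterior SD of 0 for the count of each of the 8 genes in each library, so that none of their reads were shared with another gene.

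**Figure D1:**
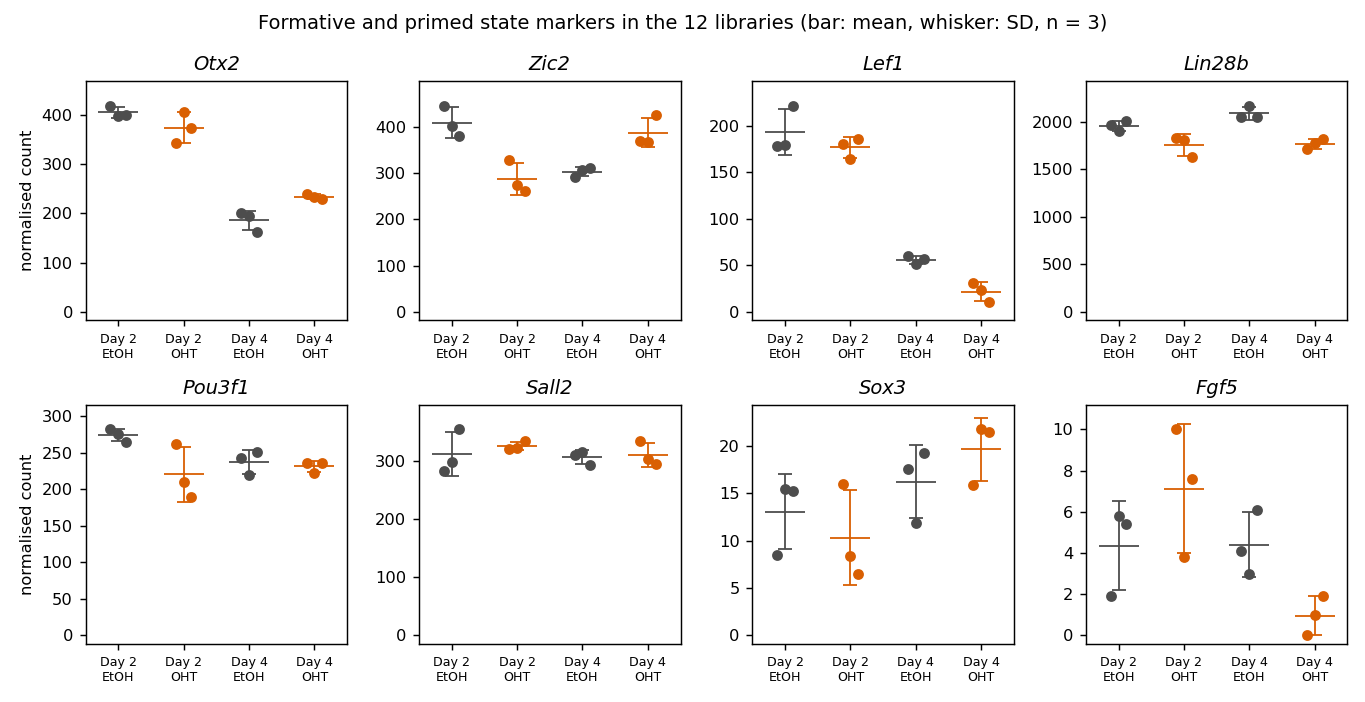
Normalised counts (vertical axes, starting at 0, a different scale for each gene) of the 8 markers in the 12 libraries, with EtOH in gray and OHT in orange; points are libraries, horizontal bars are means and whiskers are SDs (n = 3). *Otx2* and *Lef1* lie lower at Day 4 than at Day 2 in both EtOH and OHT, *Zic2* changes sides between the days, and *Fgf5* and *Sox3* stay at or below 22 normalised counts.

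To ask how the markers responded at Day 2, OHT libraries were set against EtOH libraries with DESeq2. A gene was called if its adjusted p was below 0.05 and its normalised count (expected count divided by the size factor of its library) averaged more than 100. *Zic2* was the 1 member called, and it was lower in OHT. In all, 1 of 8 members was called, or 1 of the 6 that exceeded the minimum mean, against 19.8% of the 11644 genes tested, of which 9.17% were higher and 10.6% were lower. The members' median log2 fold change was -0.14, and that of all genes tested was -0.03. Normalised counts in EtOH and OHT did not overlap for 3 of the 6 members above the minimum (*Pou3f1*, *Zic2* and *Lin28b*), as for 45.6% of the genes tested, so that the markers stood out neither by calls nor by separation.

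*Zic2* encodes a zinc finger factor that occupies enhancers in primed cells (ENSMUSG00000061524.8, chr14:122475435-122479852, plus strand). Its normalised counts at Day 2 were 446, 401 and 379.9 in the EtOH libraries and 327, 275 and 260 in the OHT libraries. Each OHT library lay below each EtOH library. The log2 fold change was -0.51 (SE 0.12, 95% interval -0.74 to -0.27, adjusted p = 0.000545 by DESeq2), or 0.704 times the EtOH level.

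*Pou3f1* encodes the POU domain factor also known as OCT6 (ENSMUSG00000090125.3, chr4:124656807-124660655, plus strand). Its counts were 282, 275.5 and 265 in EtOH against 262, 210.2 and 189.5 in OHT. The groups did not overlap, but the spread within OHT was wide, with replicate 1 next to the EtOH libraries. The log2 fold change was -0.31 (SE 0.14, 95% interval -0.59 to -0.03) and the DESeq2 adjusted p of 0.119 did not pass. Without that library the change was -0.45 and passed (adjusted p = 0.0283 by DESeq2). With any other library left out it did not pass (adjusted p from 0.193 to 0.414 by DESeq2), and 2 of its 15 alternatives passed in all. In TPM, OHT replicate 1 lay at 1.62, above the EtOH libraries at 1.54 to 1.58.

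*Lin28b* (ENSMUSG00000063804.8, chr10:45376620-45486395, minus strand) had counts of 1961, 1903 and 2004 in EtOH and of 1833, 1803 and 1623 in OHT. All OHT libraries were lower, by a small margin, with a log2 fold change of -0.16 (SE 0.06) that missed the threshold (adjusted p = 0.0653 by DESeq2). Removal of each library's trend with gene length moved it to -0.26 and past the threshold (adjusted p = 0.0006 by DESeq2). With RSEM's effective lengths as offsets it was -0.11 and did not pass (adjusted p = 0.285 by DESeq2). In all, 3 of its 15 alternatives passed. *Otx2*, *Lef1* and *Sall2* overlapped between EtOH and OHT. Their log2 fold changes were -0.11 (95% interval -0.33 to 0.10), -0.12 (95% interval -0.43 to 0.18) and 0.06 (95% interval -0.17 to 0.30), intervals that leave room for changes of moderate size.

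At Day 4 the same comparison showed *Zic2* higher in OHT and *Lin28b* lower, and *Lef1* lower with a mean under the minimum of 100. With that minimum 2 of 8 members were called, or 2 of 5 above it, against 45.1% of 11555 genes, of which 23.5% were higher and 21.7% lower. With a minimum of 20 it was 3 of 8, or 3 of 6, against 37.8% of 14950 genes. The median log2 fold change of the 5 members above 100, which leaves out *Lef1*, was 0.01, and that of all genes tested was also 0.01. Counts did not overlap for *Otx2*, *Zic2*, *Lef1* and *Lin28b*, 4 of the 6 judged members, as for 62.9% of the genes tested. A share of members near that of all genes says nothing particular about the markers.

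*Lef1*, which encodes an HMG-box factor that binds DNA with beta-catenin (ENSMUSG00000027985.14, chr3:131110471-131224356, plus strand), showed the widest gap. At Day 4 its normalised counts were 59.9, 51.4 and 56.7 in EtOH and 30.6, 23.7 and 10.2 in OHT. Every OHT library was below every EtOH library, and OHT replicate 3 was lowest. The log2 fold change was -1.39 (SE 0.36, 95% interval -2.09 to -0.68, adjusted p = 0.000672 by DESeq2), or 0.382 times the EtOH level at a mean of 39.1 counts. It ranged from -1.73 to -1.04 with single libraries left out, and was -1.04 without OHT replicate 3. The overlapping genes counted beside it, *Gm42449* on the same strand and *Gm43352* on the opposite one, had means of 1.69 and 1.01 in Day 4 EtOH and of 0 and 0.969 in Day 4 OHT.

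*Lin28b* had counts of 2046, 2167 and 2045 in Day 4 EtOH and of 1713, 1770 and 1816 in Day 4 OHT. The OHT libraries were again all lower. The log2 fold change was -0.24 (SE 0.05, 95% interval -0.35 to -0.14, adjusted p = 2.86e-05 by DESeq2), a decrease to 0.846 times the EtOH level, and it passed under all 15 alternatives.

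*Zic2* had counts of 292, 306 and 312 in Day 4 EtOH and of 370.2, 368 and 425 in Day 4 OHT. Here each OHT library lay above each EtOH library, the opposite of Day 2. The log2 fold change was 0.35 (SE 0.11, 95% interval 0.13 to 0.57, adjusted p = 0.00662 by DESeq2), or 1.28 times the EtOH level. This call rested in part on OHT replicate 3, the highest library. Without it the change was 0.28 and did not pass (adjusted p = 0.102 by DESeq2).

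*Otx2*, the homeobox factor that redirects enhancer use as cells leave the naive state (ENSMUSG00000021848.16, chr14:48657677-48673819, minus strand), had counts of 200.2, 194 and 163 in Day 4 EtOH and of 239, 233 and 229 in Day 4 OHT. The groups did not overlap, with OHT higher. The log2 fold change of 0.33 (SE 0.14, 95% interval 0.05 to 0.61) was close to the threshold but did not pass (adjusted p = 0.0554 by DESeq2). Adjusted p ranged from 0.0109, with edgeR, to 0.26 over its 15 alternatives, and 4 of them passed. *Pou3f1* and *Sall2* overlapped at Day 4, with log2 fold changes of -0.04 (95% interval -0.29 to 0.22) and 0.01 (95% interval -0.21 to 0.24).

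**Figure D2:**
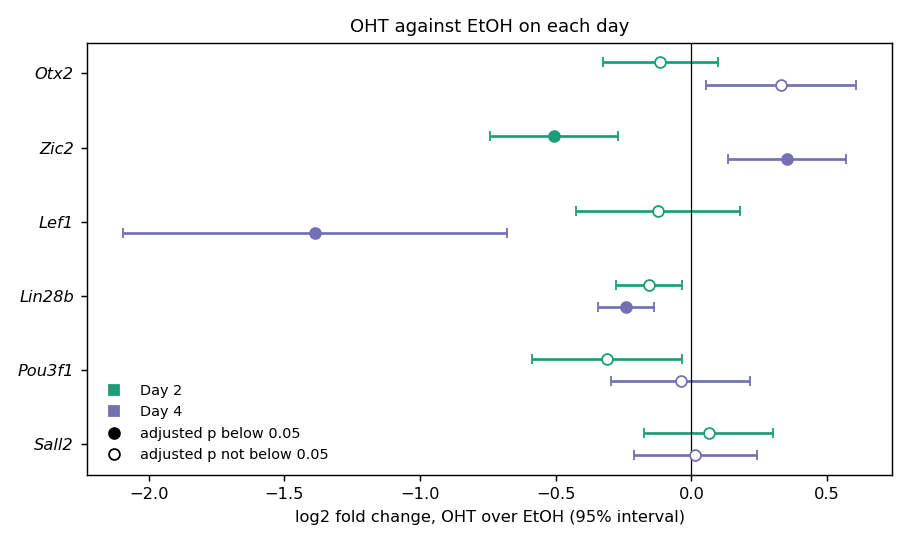
Log2 fold change of the libraries labelled OHT over EtOH (horizontal axis, with 95% intervals) for the 6 judged markers at Day 2 (green) and Day 4 (purple), 3 libraries per group; filled points have a DESeq2 adjusted p below 0.05, with a mean of at least 20. *Zic2* lies at -0.51 at Day 2 and at 0.35 at Day 4, and *Lef1* at Day 4 has the lowest value, -1.39, and the widest interval.

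A treatment-by-day interaction, fitted to the 12 libraries together, asked if the 2 days differed in their response. It was called for *Zic2*, *Lef1* and *Otx2*, 3 of 8 members, or 3 of 6 above the minimum mean, against 32.3% of 11616 genes. For *Zic2* the log2 fold change of OHT over EtOH was 0.86 (SE 0.15) more positive at Day 4 than at Day 2 (adjusted p = 4.75e-07 by DESeq2), and it passed under all 20 alternatives. For *Lef1* it was more negative at Day 4, with a difference of -1.26 (SE 0.31, adjusted p = 0.000453 by DESeq2), which also passed under all 20. The difference for *Otx2* was 0.45 (SE 0.15, adjusted p = 0.0187 by DESeq2), and 5 of its 20 alternatives did not pass, 4 of them after leaving out 1 library: Day 2 EtOH replicate 1 (adjusted p = 0.0631 by DESeq2), Day 2 OHT replicate 1 (0.0784), Day 4 EtOH replicate 3 (0.0999) or Day 4 OHT replicate 1 (0.0544). For *Lin28b*, whose counts in OHT lay below those in EtOH on both days but passed at Day 4 only, the difference was -0.08 (95% interval -0.23 to 0.06). *Pou3f1* differed by 0.27 (95% interval -0.07 to 0.62) and *Sall2* by -0.05 (95% interval -0.34 to 0.24), and neither passed.

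The EtOH libraries alone gave the change of the markers between the days in cells that had not received OHT. These values share libraries with the comparisons above. *Otx2*, *Lef1* and *Zic2* were lower at Day 4, and these were 3 of 8 members, or 3 of 6 above the minimum mean, against 41.1% of 11572 genes called in either direction. *Otx2* had counts of 418, 397 and 399 at Day 2 and, as given above, at most 200.2 at Day 4. The levels were far apart, with a log2 fold change of -1.13 (SE 0.12, adjusted p = 1.14e-17 by DESeq2), or 0.457 times the Day 2 level. *Lef1* had 178, 179 and 221 at Day 2 and at most 59.9 at Day 4. Its log2 fold change was -1.79 (SE 0.20, adjusted p = 1.78e-17 by DESeq2), or 0.29 times the Day 2 level. *Zic2* fell less, by 0.43 on the log2 scale (SE 0.11, adjusted p = 0.00072 by DESeq2). All 3 passed in each of 15 alternatives. *Pou3f1* (-0.21, 95% interval -0.46 to 0.04), *Lin28b* (0.09, 95% interval -0.01 to 0.20) and *Sall2* (-0.02, 95% interval -0.27 to 0.22) did not pass. Counts of 5 of the 6 judged members, all but *Sall2*, did not overlap between the days, as for 59.0% of genes.

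In the libraries labelled OHT the same 2 genes fell between the days, and *Zic2* rose. *Otx2* had counts of 342, 405.5 and 374 at Day 2 and of 229 to 239 at Day 4, a log2 fold change of -0.68 (SE 0.12, adjusted p = 1.45e-07 by DESeq2). *Zic2* rose by 0.43 on the log2 scale (SE 0.12, adjusted p = 0.00147 by DESeq2), from the range of 260 to 327 to that of 368 to 425. With the minimum of 100 these were 2 of 8 members, or 2 of 5, against 53.6% of 11638 genes. *Lef1*, with a mean of 99.8 over these 6 libraries, was just under that minimum. Its counts of 181, 164 and 185 at Day 2 and of 30.6 or less at Day 4 gave a log2 fold change of -3.04 (SE 0.27, adjusted p = 1.19e-28 by DESeq2), or 0.121 times the Day 2 level. With a minimum of 20, 3 of 8 members were called against 47.3% of 15121 genes. *Sall2*, a zinc finger factor of the spalt family (ENSMUSG00000049532.11, chr14:52311172-52328762, minus strand), was not called in any of these comparisons, and its 12 counts lay between 284 and 355. Counts of 3 of the 6 judged members did not overlap between the days, against 70.1% of genes.

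**Figure D3:**
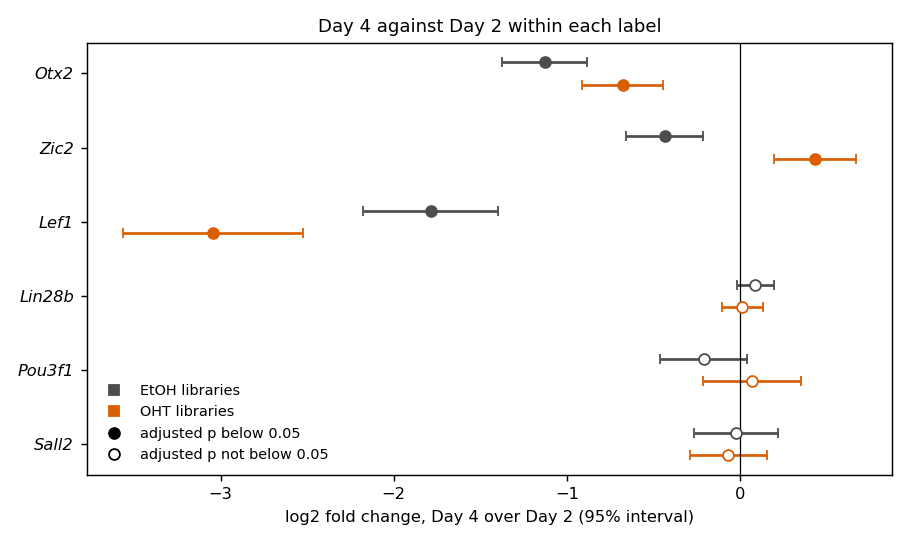
Log2 fold change of Day 4 over Day 2 (horizontal axis, with 95% intervals) for the 6 judged markers in the EtOH libraries (gray) and in the libraries labelled OHT (orange), 3 libraries per day; filled points have a DESeq2 adjusted p below 0.05, with a mean of at least 20. *Lef1* fell furthest in both, at -1.79 and -3.04, *Otx2* fell in both, at -1.13 and -0.68, and *Zic2* lies at -0.43 in EtOH and 0.43 in OHT.

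Markers of other cell types were set beside these changes. The summed TPM of 10 fibroblast markers was 2.97 to 3.83 in Day 4 EtOH and 1.81 to 2.62 in Day 4 OHT, and so was lower where *Lef1* was lower. At Day 2 it was 3.41 to 4.02 in EtOH and 3.34 to 3.51 in OHT. Only 4 of the 10 had a mean expected count of at least 20, and they did not share a direction. Most of the Day 4 difference was in *Thy1* (mean TPM 2.18 in EtOH and 0.777 in OHT), and *Col1a1*, a defining collagen of fibroblasts, was at 0.193 and 0.160. *Twist1*, at 0.610 and 0.870, and *Pdgfrb*, at 0.160 and 0.237, were higher in OHT. The 8 neural progenitor markers summed to 2.48 to 3.07 at Day 2 and 5.26 to 5.91 at Day 4, with 3 of 8 at a mean of at least 20, and so were higher on the day on which *Otx2* and *Lef1* were lower. *Olig2* made up most of that sum. The 7 trophectoderm markers summed to 28.2 to 29.1 in Day 4 EtOH and 34.9 to 35.9 in Day 4 OHT, nearly all of it *Tfap2c*. The 8 primitive endoderm markers, 6 of them with a mean of at least 20, summed to 6.17 to 7.09 in EtOH and 7.33 to 7.85 in OHT at Day 2, and to 8.32 to 8.75 and 8.34 to 9.31 at Day 4. *Lama1* made up most of these sums (mean TPM 4.34 and 4.99 at Day 2, and 5.93 and 6.28 at Day 4). The others with a mean of at least 20 did not share a direction. At Day 4 *Gata4*, *Gata6* and *Pdgfra* were lower in OHT, and *Dab2* and *Sox17* were higher. The 6 markers of 2-cell-like cells, 1 of them with such a mean, summed to 0.20 to 0.27 in EtOH and 0.22 to 0.40 in OHT at Day 2, and to 1.11 to 1.19 and 0.40 to 0.85 at Day 4. No marker of any list was at 0 in all libraries, and the part of these cell types in the marker changes was not tested.

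For each judged member the 2 genes with the most similar pattern were found by Pearson's r of log2(normalised count + 1) over the 12 libraries, among 11615 genes. These r values rest on 4 groups rather than on independent points, and they are given as a description. *Otx2* was tracked most closely by *Cldn7* (r = 0.989), a tight junction claudin, and *Plod2* (r = 0.988), a collagen lysyl hydroxylase. *Cldn7* had mean normalised counts of 299 and 285.5 in EtOH and OHT at Day 2 and of 99.8 and 132 at Day 4, so that like *Otx2* it fell between the days and stood higher in OHT at Day 4. *Lef1* was matched by *Tasp1* (r = 0.988), a protease, and *Sfn* (r = 0.978), which encodes 14-3-3 sigma. *Sfn* had means of 2960 and 2923 in EtOH and OHT at Day 2 and of 2231 and 1731 at Day 4. For *Zic2* they were *Tmem259* (r = 0.938) and *2900097C17Rik* (r = 0.923), and for *Lin28b* they were *Ppm1k* (r = 0.942), a mitochondrial phosphatase, and *Zfp207* (r = 0.926). The nearest genes of *Pou3f1*, *Mettl9* (r = 0.888) and *Rfxap* (r = 0.868), and of *Sall2*, *Fkbp14* (r = 0.811) and *Prkab2* (r = 0.781), were less similar. None of the 8 members was among the 633 genes that the study lists as bound by PRDM10.

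The counts of called genes in this and the following lists stand beside a background of 19.8% of all genes tested at Day 2 and 45.1% at Day 4. Paralogs of the markers were compared first, as a list of 15 genes of which 7 had a mean above 100. At Day 2, 4 of the 7 were higher in OHT and 2 lower, with a median log2 fold change of 0.15 against -0.03 over all genes, and at Day 4, 1 was higher and 2 lower with a median of -0.09 against 0.01. Among the TCF/LEF factors, *Tcf7* followed *Lef1* at Day 4, with a log2 fold change of -0.34 (SE 0.10, adjusted p = 0.00395 by DESeq2), but was higher at Day 2, by 0.31 on the log2 scale (SE 0.08, adjusted p = 0.00251 by DESeq2). *Tcf7l2* was higher at Day 2 by 0.80 on the log2 scale (SE 0.20, adjusted p = 0.00123 by DESeq2) and had a log2 fold change of -0.20 (SE 0.19) at Day 4, which did not pass. *Lef1* itself was not called at Day 2, when both of these were higher. *Tcf7l1*, counted below among the other formative genes, had log2 fold changes of 0.42 at Day 2 and -0.17 at Day 4, neither of them called. *Lin28a*, the paralog of *Lin28b*, was far more abundant, at 65.2 TPM in Day 2 EtOH, and its log2 fold change was -0.10 (SE 0.04, adjusted p = 0.0467 by DESeq2) at Day 2 and -0.01 (SE 0.03) at Day 4.

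Of the other families, *Zic1* and *Zic4* had mean expected counts of 1.83 and 0.167. *Zic5*, counted below among the other formative genes, was called lower at Day 2, with a log2 fold change of -0.21, and was not called at Day 4, with -0.17. *Sox2*, the SoxB1 factor of the pluripotency core, was lower at Day 2, with a log2 fold change of -0.29 (SE 0.04, adjusted p = 9.74e-10 by DESeq2) and higher at Day 4 by 0.16 on the log2 scale (SE 0.04, adjusted p = 1.77e-05 by DESeq2), the same order of signs as *Zic2*. *Sox1*, with a mean expected count of 73.1, was under the minimum of 100. With the minimum of 20 it was higher at Day 4, by 0.50 on the log2 scale (SE 0.20, adjusted p = 0.0382 by DESeq2). *Sall4* and *Sall1* were higher at Day 2, with log2 fold changes of 0.16 (SE 0.05, adjusted p = 0.0109 by DESeq2) and 0.26 (SE 0.06, adjusted p = 0.00101 by DESeq2), and at Day 4 *Sall1* was lower, with -0.22 (SE 0.05, adjusted p = 5.02e-05 by DESeq2). The paralogs of *Pou3f1* within the *Pou3f* group and those of *Otx2* were all low, with mean expected counts of 22.6 for *Pou3f3* and of 5.08 or less for *Pou3f2*, *Pou3f4*, *Otx1* and *Crx*.

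The wider formative program was taken as a list of 20 other genes. At Day 2, 16 had a mean above 100, of which 4 were lower in OHT and 12 were not called, with a median log2 fold change of -0.06. At Day 4, 17 exceeded it, of which 1 was higher, 6 were lower and 10 were not called, with a median of -0.14 against 0.01 over all genes. The de novo methyltransferase *Dnmt3a* was lower at Day 4, with a log2 fold change of -0.64 (SE 0.04, adjusted p = 5.56e-74 by DESeq2), with mean normalised counts of 9518 in EtOH and 6120 in OHT. The epithelial factor *Grhl2* was lower, with a log2 fold change of -0.60 (SE 0.14, adjusted p = 0.000135 by DESeq2). *Tdgf1*, the Nodal co-receptor, was higher by 0.13 on the log2 scale (SE 0.03, adjusted p = 9.76e-06 by DESeq2). It was the 1 gene that was higher, where edgeR gave 3 and removal of the length trend 2. Between the days in EtOH, 7 of the 17 were higher at Day 4 and 3 lower, so that the list did not move as *Otx2* and *Lef1* did, and *Dnmt3a* was higher by 0.99 on the log2 scale (SE 0.04, adjusted p = 4.55e-152 by DESeq2). Of 12 primitive streak genes, 2 exceeded the minimum, *Eomes* and *Lefty2*, and both were higher at Day 4, by 0.47 on the log2 scale (SE 0.18, adjusted p = 0.0269 by DESeq2) and 0.43 (SE 0.03, adjusted p = 6.77e-34 by DESeq2). In the EtOH libraries both were lower at Day 4 than at Day 2, with a log2 fold change of -1.14 (SE 0.16, adjusted p = 2.97e-11 by DESeq2) and -0.94 (SE 0.04, adjusted p = 9.4e-157 by DESeq2), as were *Otx2* and *Lef1*.

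The opposite state was described by 15 naive genes, all with a mean above 100. At Day 2, 4 were higher in OHT and 2 lower, with a median of 0.02, and the lower calls were 4 with the length trend removed and 1 with total counts. At Day 4, 10 were higher and 3 lower, with a median of 0.26 against 0.01 over all genes, the most positive median of the lists with more than 2 genes tested. The nuclear receptors *Nr0b1* and *Esrrb* were higher at Day 4 by 0.64 on the log2 scale (SE 0.04, adjusted p = 4.49e-50 by DESeq2) and 0.40 (SE 0.03, adjusted p = 2.77e-34 by DESeq2). *Klf5* and *Dppa3* were lower, with a log2 fold change of -0.33 (SE 0.06, adjusted p = 5.58e-06 by DESeq2) and -0.32 (SE 0.06, adjusted p = 2.97e-06 by DESeq2). More genes of the naive list were thus higher than lower at Day 4, while the 2 markers called at the same minimum were split in direction.

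Pathways that act on the members were examined last. Of 17 WNT and beta-catenin genes, which act with LEF1, 11 were tested at Day 2 (5 higher, 1 lower) and 12 at Day 4 (6 higher, 4 lower, median 0.08). *Axin2*, a target that reports beta-catenin activity, was lower at Day 4, with a log2 fold change of -0.38 (SE 0.16, adjusted p = 0.0443 by DESeq2), as was *Lrp6*, a WNT co-receptor, with a log2 fold change of -0.16 (SE 0.04, adjusted p = 0.000547 by DESeq2). In contrast *Cdx1*, also a known target, was higher by 0.70 on the log2 scale (SE 0.17, adjusted p = 0.000136 by DESeq2), as was the receptor *Fzd7* by 0.40 on the log2 scale (SE 0.04, adjusted p = 5.49e-19 by DESeq2). With the length trend removed, 1 gene of the list was lower at Day 4 in place of 4.

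Of 18 let-7 pathway genes, 15 were found by symbol and all 15 had a mean above 100. At Day 2, 5 were higher and 10 were not called, with a median of 0.11, and at Day 4, 6 were higher and 4 lower with a median of 0.05. At Day 4, where *Lin28b* was lower, the let-7 targets *Hmga2* and *Igf2bp3*, whose 3′ UTRs held 4 and 1 seed matches, were higher by 0.90 on the log2 scale (SE 0.12, adjusted p = 7.78e-12 by DESeq2) and 0.38 (SE 0.05, adjusted p = 6.81e-14 by DESeq2). The targets did not share a direction. Of the others with 4 matches, *Trim71* was called lower (-0.11) and *Igf2bp1* (-0.06) was not called. Of the others with 1 match, *Igf2bp2* was called higher (0.31) and *Hmga1* lower (-0.09). *Arid3b* (-0.09) and *E2f6* (0.14), also with 1 match, were not called. The microRNA-processing enzymes *Drosha* and *Dicer1* were lower, with a log2 fold change of -0.21 (SE 0.04, adjusted p = 1.09e-06 by DESeq2) and -0.15 (SE 0.04, adjusted p = 0.000245 by DESeq2). The list's other genes without a seed match did not follow them. *Dgcr8* (0.13), *Xpo5* (0.12) and *Dis3l2* (0.25) were called higher, and *Tut4* (-0.05) and *Tut7* (0.05) were not called.

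All 10 FGF pathway genes were tested on both days. At Day 2, 3 were higher and 1 lower, and at Day 4, 3 were higher and 2 lower, with medians of 0.03 and -0.04. At Day 4 the feedback inhibitors of FGF signaling did not share a direction. *Dusp6* and *Spry1* were higher, by 0.66 on the log2 scale (SE 0.04, adjusted p = 1.91e-47 by DESeq2) and 0.42 (SE 0.12, adjusted p = 0.00238 by DESeq2), and *Spred2* was lower, with a log2 fold change of -0.40 (SE 0.08, adjusted p = 1.23e-05 by DESeq2). *Egr1*, an immediate early target, was lower, with a log2 fold change of -1.26 (SE 0.20, adjusted p = 5.08e-09 by DESeq2), and with *Fgf5* too low to judge the ligand among the markers could not be placed beside them.

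**Figure D4:**
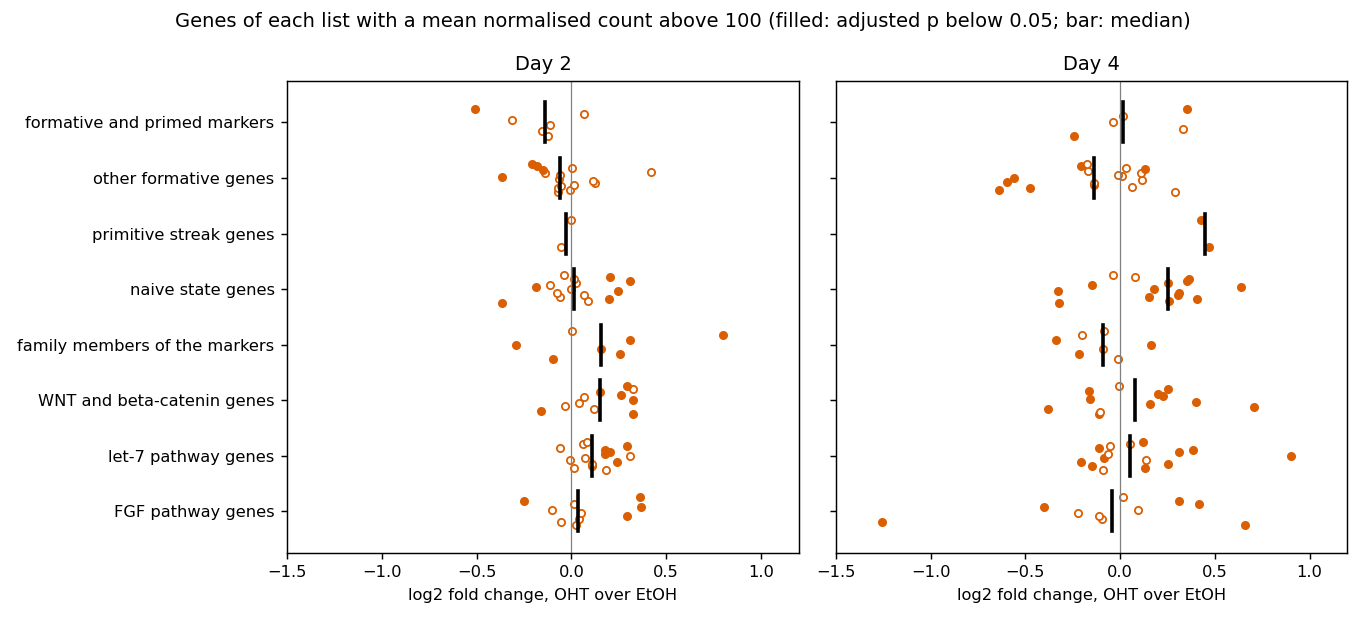
Log2 fold change of OHT over EtOH (horizontal axes) at Day 2 and Day 4 for the genes of the marker list and of 7 other lists with a mean normalised count above 100; each point is a gene, filled where the DESeq2 adjusted p was below 0.05, and the vertical bar is the list's median. Medians at Day 4 run from -0.14 for the other formative genes to 0.26 for the naive genes and 0.45 for the 2 primitive streak genes; *Lef1*, with a mean of 39.1, is not in the Day 4 panel.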

How the data were processed

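RNA-seq was performed on 12 mESC libraries, grouped by sample title. Reads were mapped by the authors to GRCm38.p6 with STAR (2.6.0c) and assigned to GENCODE vM18 genes with RSEM, which gave the deposited expected counts, 1 file per library. The deposited TPM values are scaled within each library and were used for levels of the members and summed levels of marker lists, without a test. RSEM's posterior SDs and lengths, deposited by the authors as score-like columns, were used to see whether reads were shared. The deposited log2 fold changes and p-values are the authors' DESeq2 (1.22.2) results and were not used, other than for symbols.

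Expected counts were rounded and tested with DESeq2 (1.42.0, R 4.3.3; Wald test, median-of-ratios factors, Benjamini-Hochberg adjustment over the genes left by its filter on low means, no shrinkage), and fold changes have 95% intervals. Each comparison had its own fit; printed normalised counts use size factors over all 12 libraries. Alternatives were edgeR (4.0.16), TMM or total-count scaling, effective lengths as offsets, removal of a loess trend with gene length (span 0.3), the replicate number as a block, 1 fit of all libraries, minimum means of 20 or none, adjustment over genes above 100 alone, and each library left out. The main DESeq2 fits were also run on simulated counts, which checks the code and not the results given here. The members and gene lists were chosen with earlier results of these data known. Named genes are the members, *Prdm10*, their paralogs, the 2 nearest genes by r, and up to 2 called genes per direction of each other list with the largest Day 4 change. The other genes of the let-7 list, with and without seed matches, are named as well. The values of 1 paralog are not reported here. No molecular identifiers are described, so that the floor of 3 counts covers counting error only. Positions and 3′ UTRs (the longest per gene) are from GENCODE vM21 on GRCm38; promoters (GRCm38.p6) and microRNAs are from RefSeq.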

Additional observations from a re-analysis of the deposited data

Results flagged for a closer look

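Each of the following, all of them genes named above, was picked out because its response to OHT at Day 4 differed from that at Day 2 in a treatment-by-day interaction test (DESeq2, 3 libraries per group, adjusted over the genes left by its filter on low means). Values are the Day 4 minus the Day 2 log2 fold change. Of the markers these were *Otx2* (0.45), *Zic2* (0.86) and *Lef1* (-1.26). *Zic2* was lower in all OHT libraries at Day 2 and higher in all of them at Day 4. Of the paralogs they were *Sox2* (0.46), *Tcf7* (-0.65), *Tcf7l2* (-1.0), *Sall1* (-0.47) and *Sall4* (-0.24). *Tcf7*, *Tcf7l2* and *Lef1* differed in the same direction.

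Of the other formative genes, *Tdgf1* (0.29), *Dnmt3a* (-0.63) and *Grhl2* (-0.72) differed, and of the primitive streak genes *Eomes* (0.53) and *Lefty2* (0.43). The naive genes were *Nr0b1* (0.83), *Esrrb* (0.21) and *Klf5* (-0.57). The pathway genes were *Fzd7* (0.36), *Axin2* (-0.50) and *Lrp6* (-0.31) for WNT, *Hmga2* (0.59), *Igf2bp3* (0.21), *Drosha* (-0.45) and *Dicer1* (-0.26) for let-7, and *Dusp6* (0.63), *Spry1* (0.41), *Egr1* (-1.20) and *Spred2* (-0.77) for FGF. Over all tested genes of each list, the differences called were 3 positive and 5 negative of 17 for the other formative genes, 9 and 1 of 15 for the naive genes, 3 and 5 of 12 for WNT, 3 and 5 of 15 for let-7, 4 and 4 of 10 for FGF and 1 and 4 of 7 for the paralogs. Both primitive streak genes tested were positive. Since 32.3% of all tested genes differed between the days, single entries of this list are not unusual. Apart from the markers and paralogs, the genes were named for their Day 4 change, which the Day 4 minus Day 2 difference contains. How many of them differed is therefore not comparable with that share.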

How the results depend on the processing

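With single libraries left out, the number of members called ranged from 1 to 2 at Day 2, from 1 to 2 at Day 4, from 2 to 3 for the difference between the days, was 3 between the days in EtOH, and ranged from 2 to 3 in OHT. At Day 2 it was 3 with the length trend removed (*Pou3f1* and *Lin28b* added), and 2 in 1 fit of all libraries or with the replicate block and the length trend removed together (*Lin28b* added each time). At Day 4 it was 4 in 1 fit of all libraries (*Otx2* and *Lef1* added). With no minimum mean it was 4 between the days in OHT, *Fgf5* among them, which was too low to judge. The replicate number as a block left 1 member at Day 4, since *Zic2* no longer passed (adjusted p = 0.0601 by DESeq2). Deviations from the group means correlated with r from -0.385 to 0.285 for same-numbered libraries and from -0.361 to 0.377 for differently numbered ones. With 3 libraries per group these values cannot tell whether the numbers pair the libraries, which the labels do not say. In the fit of all libraries *Lef1* had a mean of 111.7 and so exceeded the minimum of 100, and *Fgf5* was counted only where no minimum applied. The cause of the other moves was not tested.

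Signs reversed only where no call had been made. *Sall2* at Day 2 was -0.031 with the length trend removed, -0.028 with the block and trend, and from -0.005 to 0.166 with single libraries left out. At Day 4 the left-out ranges were -0.042 to 0.053 for *Sall2* and -0.094 to 0.003 for *Pou3f1*. For the difference between the days, removal of the trend, without and with the block, gave 0.039 and 0.041 for *Lin28b* and 0.066 both times for *Sall2* (left-out range -0.147 to 0.017). Between the days in EtOH *Sall2* ranged from -0.09 to 0.075. In OHT *Pou3f1* ranged from -0.027 to 0.213 and *Lin28b* from -0.04 to 0.046, and *Lin28b* was -0.051 with effective lengths and -0.015 with total counts. *Sall2* was 0.052 and 0.051, and *Prdm10* 0.01 both times, with the trend removed without and with the block. List medians at Day 2 reversed for primitive streak genes (0.009, total counts), naive genes (-0.016, trend removed) and FGF genes (-0.013, trend removed). With the trend removed, higher calls at Day 2 were 2 for each of the paralog, WNT and let-7 lists, and lower calls were 4 for the naive, 2 for the FGF and 1 for the let-7 genes. With total counts, higher calls were 8 for let-7, and lower calls were 2 for the other formative genes, 1 each for the naive genes and paralogs and 0 for WNT. With edgeR, 1 other formative gene was higher and 1 paralog lower at Day 2. At Day 4, higher calls among the other formative genes were 3 with edgeR and 2 with the trend removed, which left 1 lower WNT gene. Adjustment over genes above 100 alone gives no Day 4 value for *Lef1*, whose mean is lower. Depth limits *Fgf5* and *Sox3* in every comparison.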
